A study of Mus musculus with 24 samples.

Results

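Vegf ligands, the receptors that bind them and further regulators of vessel growth were described here as a set of 9 genes in mouse macrophages. The members were chosen by gene symbol alone: Vegfa, Vegfb, Pdgfa, Pdgfb, Adm, Flt1, Nrp1, Nrp2 and Thbs1. They are 9 of the 52636 genes in the expression tables, and each symbol named 1 gene. Macrophages were grown for 6 days in L cell conditioned medium from the bone marrow of mice 8 to 12 weeks old. Conditional knockouts of Elavl1, with 2 floxed copies by their labels (HuR fl/fl, here KO), were KO-176, KO-281 and KO-301. Their controls had 1 floxed copy (HuR +/fl, here HET) and are named HET-97, HET-102 and HET-129. All 6 mice carried Csf1r-iCre, a Cre recombinase driven by a promoter active in the macrophage lineage, and all expressed ribosomal protein L10a fused to EGFP. Controls were thus heterozygous and Cre-positive, and a mouse without a floxed copy or without Cre was not analysed here. Separate plates of each mouse were held for 18 h in hypoxia (1% O2, 5% CO2) or normoxia (20% O2, 5% CO2). Each lysate gave a library of ribosome-bound RNA, pulled down through the tagged L10a (TRAP), and a library of total RNA. The 24 libraries formed 8 groups of 3 mice.

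As background, Vegfa is the main secreted factor that drives endothelial cells to divide and migrate, and Vegfb is its weaker relative. Both bind the receptor tyrosine kinase Flt1 on endothelial cells, and the neuropilins Nrp1 and Nrp2 act as co-receptors that also bind semaphorins. Pdgfa and Pdgfb encode chains of platelet-derived growth factor, which recruits smooth muscle cells and pericytes, Adm encodes the vasodilator peptide adrenomedullin, and Thbs1 encodes thrombospondin, a secreted inhibitor of vessel growth. In many cell types low oxygen raises Vegfa and Adm through hypoxia-inducible factors. HuR, the product of Elavl1, binds AU-rich stretches in the 3' ends of messenger RNAs, and Vegfa messenger RNA is a known target.

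Because HuR binds AU-rich stretches, the annotated 3' ends of the 9 genes were searched on the sense strand for the AU-rich nonamer TTATTTATT (GENCODE M21 on GRCm38, the longest 3' end per gene). Vegfa, Flt1 and Thbs1 each held 1 nonamer, and the other 6 genes held none. These 3 sites are shown with the nonamer in capitals, 5′ to 3′ on the gene's own strand. Vegfa lies at chr17:46017166-46017194 (minus strand), Flt1 at chr5:147638581-147638609 (minus strand) and Thbs1 at chr2:118126155-118126183 (plus strand).
Vegfa: ttgttatcatTTATTTATTggtgctactg
Flt1: gttataatgcTTATTTATTtgaaacttgg
Thbs1: taaatacagaTTATTTATTaaccctgttc

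The nonamer stood in 7.98% of the 10685 tested genes with an annotated 3' end, and long ends hold it more often. Among genes with a 3' end 0.8 to 1.2 times as long, it stood in 9.47% for the length of Vegfa (1865 bases), 9.82% for Thbs1 (2104 bases) and 17.5% for Flt1 (3971 bases). The shorter pentamer ATTTA, which is contained in the nonamer, occurred 9 times in Vegfa, and 4.49% of genes of like length held at least as many. It occurred 8 times in Flt1 and 6 times in Thbs1, counts reached by 40% and 24.6% of genes of like length. Vegfb, Pdgfa and Nrp1 held no ATTTA, Nrp2 and Adm held 2 each and Pdgfb held 3. A match in letters is a description and does not show binding.

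Promoter windows, 250 bases before to 50 after the annotated start in RefSeq on GRCm38.p6, were found for 7 of the 9 genes, as 9 windows. The core letters of the hypoxia response element, ACGTG on either strand, occurred in 1 of the 9 windows, the downstream one of the pair for Vegfa, and in 19.6% of all 32851 windows. That window belongs to a start inside the annotated gene. The other Vegfa window, at the 5' end of the annotated gene, held no ACGTG. The site lies at chr17:46025358-46025386 on the minus strand and is shown with the core in capitals, which reads ACGTG on the opposite strand.
Vegfa promoter: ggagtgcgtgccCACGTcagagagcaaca

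The related core GCGTG stood in 7 of the 9 windows, among them the 1 window with ACGTG. Thus 1 core or the other stood in 7 of the 9 windows, against 43.8% of all windows. GCGTG by itself was not counted over all windows. Windows of Nrp2, Pdgfa, Flt1, Adm, Nrp1, Vegfa and Vegfb held GCGTG, while the other window of Pdgfa and the other of Vegfa held neither core. These windows are short and leave out more distant elements.

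The targeted gene and the oxygen treatment were checked first. Levels are given as TPM, a length-scaled share of the transcripts in a library. Elavl1 in total RNA averaged 30.1 ± 4.43 TPM in hypoxic KO and 35.3 ± 21.3 TPM in hypoxic HET macrophages, and 35.3 ± 0.664 TPM in normoxic KO and 32.1 ± 3.15 TPM in normoxic HET macrophages (SD, n = 3 each). The genotypes overlapped in both conditions, so no loss of Elavl1 RNA was seen in the libraries labelled KO. A value summed over the whole gene does not show whether the floxed part was removed, so every genotype direction given here goes by the labels. In TRAP RNA, Elavl1 stood at 1.75 TPM in hypoxic KO-176 and 0.84 TPM in normoxic KO-301, against 10.5 to 23.5 TPM in the other TRAP libraries. All 6 hypoxia-responsive genes checked (Egln3, Ankrd37, Bnip3, Pgk1, Ldha and Slc2a1) rose in total RNA, led by Egln3, a prolyl hydroxylase, with a log2 difference of 2.02 ± 0.19 (SE, limma, adjusted p = 0.00826).

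Macrophage markers were high throughout, with all 8 detected. Their summed level in total RNA was 14300 to 21200 TPM in KO and 22800 to 26800 TPM in HET macrophages, so the genotypes did not overlap. That separation rested on Lyz2, a lysozyme gene, which held most of the sum. Without Lyz2 the sums overlapped, at 2620 to 4550 TPM in KO and 3270 to 4410 TPM in HET macrophages in hypoxia, and at 2380 to 3590 and 3280 to 4800 TPM in normoxia. In total RNA Lyz2 and Cd14 were lower in KO without overlap at both oxygen levels, and the other 6 markers overlapped. In hypoxic TRAP RNA the sums of all 8 were again apart, at 11000 to 14000 TPM in KO and 18700 to 20900 TPM in HET macrophages. Without Lyz2 they overlapped there, at 2010 to 3410 and 2620 to 3500 TPM. In normoxic TRAP RNA the sums of all 8 overlapped, at 10800 to 12900 TPM in KO and 11400 to 20000 TPM in HET macrophages. Mouse KO-301 stood apart. Its libraries were the least like the others (median Spearman correlation 0.88 to 0.903, against 0.901 to 0.957 in the other mice). It had the highest summed stromal markers in total RNA, 50 TPM in hypoxia and 60.6 TPM in normoxia, and the highest neutrophil markers, 95.1 and 60.7 TPM. Col1a2 and Col1a1 led the stromal sum, at up to 28.8 and 25.8 TPM, while Lum and Pdgfra reached at most 0.0799 and 0.117 TPM. In TRAP RNA of KO-301 the stromal sum was 3.29 TPM in hypoxia and 2.59 TPM in normoxia. S100a9 and S100a8 led the neutrophil sum, at up to 50.8 and 38.5 TPM. Ly6g was at 0 in all libraries, and Elane and Mpo reached at most 0.396 and 0.236 TPM in total RNA. Endothelial markers summed to 2.16 to 7.97 TPM in total RNA, 5 of 8 reached 1 TPM in any library, and KO-301 was again the highest. Kdr led that sum, at up to 5.37 TPM in normoxic KO-301, while Egfl7, Esam and Cldn5 peaked in other mice. Dendritic and lymphocyte markers stayed under 1 TPM in sum. Platelet markers summed to 5.61 to 35.8 TPM in total RNA, with Ppbp at up to 34.6 TPM. The part of these other cell types in the results was not tested. Fitted log2 differences of members that leaving out KO-301 moved by over 1.5 times are also given without it.

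Nrp1, Vegfa, Thbs1, Nrp2 and Vegfb were the abundant members, Pdgfa and Pdgfb were lower, and Adm and Flt1 were near 0. In hypoxic total RNA the means over 6 mice ran from 108 TPM for Nrp1 through 87.9 for Vegfa, 78.0 for Thbs1, 73.9 for Nrp2 and 63.9 for Vegfb to 24.4 for Pdgfa and 16.4 for Pdgfb. In normoxic total RNA the order was Nrp1 (128.8 TPM), Vegfa (117), Nrp2 (88.1), Thbs1 (87.5), Vegfb (71.4), Pdgfa (28.9) and Pdgfb (15.1). These levels are per transcript length. The first 5 genes were not separated, since neighbours in each order kept their rank in only 3 to 5 of 6 mice, whereas Vegfb exceeded Pdgfa, and Pdgfa exceeded Pdgfb, in 6 of 6 mice at both oxygen levels.

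Flt1, the high-affinity Vegf receptor, reached 1.63 TPM in hypoxic and 1.04 TPM in normoxic total RNA of KO-301. That mouse had the highest stromal, neutrophil and endothelial marker sums in total RNA, the last a low sum led by Kdr. Whether any of them bears on the Flt1 value was not tested. In the other 5 mice Flt1 lay between 0.0292 and 0.319 TPM. Adm, whose peptide widens vessels, was listed at 0 in KO-281 and HET-102 total RNA at both oxygen levels. Its highest total RNA value was 1.12 TPM, in hypoxic KO-301. In hypoxia it averaged 0.501 TPM against 0.179 TPM in normoxia (6 mice each), and it was higher in hypoxia in 4 mice and at 0 in both conditions in the other 2. Neither gene passed the filter of 1 TPM in 3 libraries, except Flt1 in the fit over both fractions and both oxygen levels, so 7 of the 9 genes were tested.

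**Figure D1:**
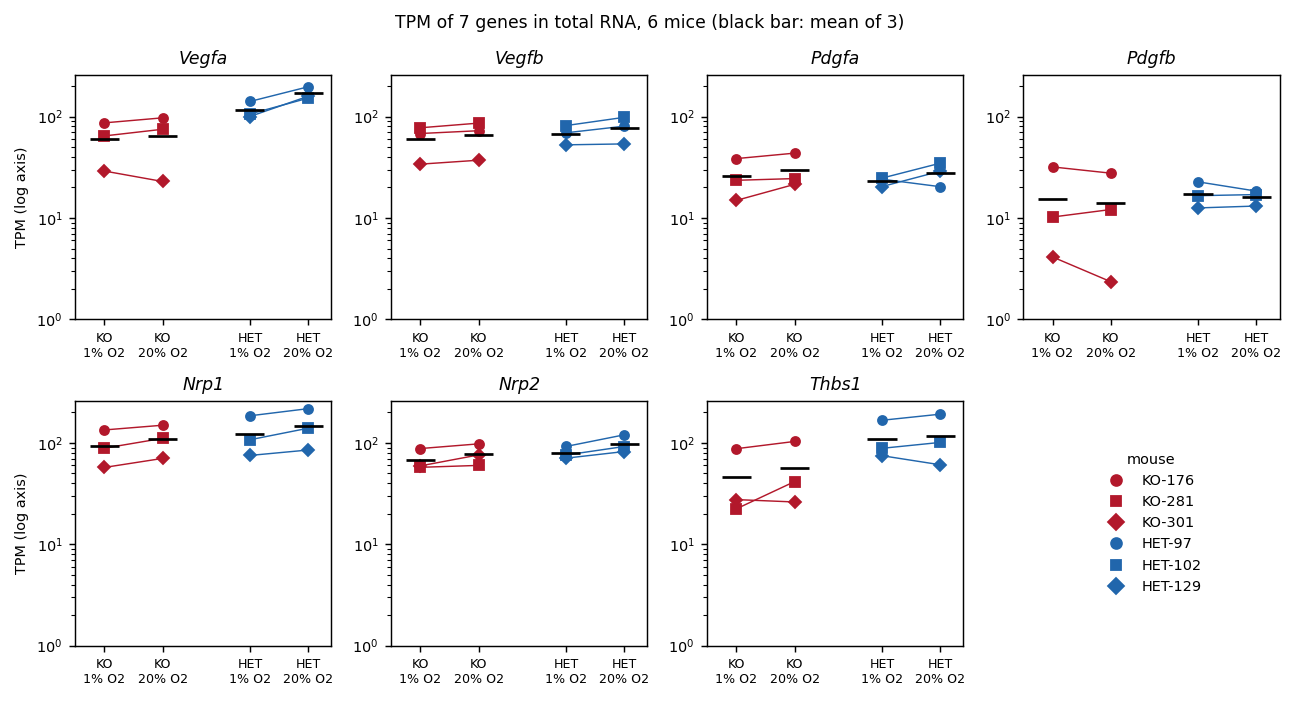
TPM on a log axis in total RNA for the 7 genes tested, with hypoxia (1% O2) left of normoxia (20% O2) and KO (red) left of HET (blue). Points are mice, lines join the 2 plates of a mouse and black bars are means of 3, and all 3 KO points of Vegfa lie below all 3 HET points at each oxygen level.

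Hypoxia lowered 1 of the 7 genes in total RNA, Nrp1, by a modest amount, and no member rose past the threshold. Vegfa, a known target of hypoxia-inducible factors, was lower in hypoxia in 5 of 6 mice and did not pass. Of all 12403 genes tested, 3.97% passed (2.40% lower, 1.56% higher), and 1 of 7 is too small a count to set apart from that share. The median log2 difference of the 7 was -0.24, against -0.01 over all genes tested, and 6 of the 7 were lower against 52.2% of all genes.

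Nrp1, the co-receptor, had 134, 88.7 and 57.3 TPM in hypoxic KO-176, KO-281 and KO-301, and 185, 107 and 75.2 TPM in hypoxic HET-97, HET-102 and HET-129. In normoxia it had 149, 111 and 70.3 TPM in the KO mice and 218, 140 and 85.1 TPM in the HET mice, in the same order. Hypoxic values were below normoxic ones in 6 of 6 mice, while the ranges of the conditions overlapped widely between mice. The difference on the log2(TPM + 1) scale was -0.26 ± 0.05 (SE, n = 6, limma with mouse as a block, adjusted p = 0.0379). The call was lost without any 1 of the 6 mice, with limma's adjusted p between 0.0708 and 0.0988, and the difference then ran from -0.28 to -0.23. In TRAP RNA Nrp1 was again lower in hypoxia in 6 of 6 mice, as 4.87% of genes were, by -0.33 ± 0.10 (SE, limma, adjusted p = 0.228), which did not pass.

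Nrp2, the related co-receptor, was lower in hypoxic total RNA in 6 of 6 mice, and so was Vegfb. Across all genes 9.28% were lower in 6 of 6 mice, and 3 of the 7 genes were (Nrp1, Nrp2 and Vegfb). The Nrp2 difference was -0.24 ± 0.06 (SE, limma, adjusted p = 0.0667) and that of Vegfb -0.15 ± 0.05 (SE, limma, adjusted p = 0.156), and neither passed.

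Vegfa total RNA stood at 86.7, 64.5 and 29.05 TPM in hypoxic KO-176, KO-281 and KO-301, and at 141, 106 and 100.2 TPM in hypoxic HET-97, HET-102 and HET-129. In normoxia it stood at 97.2, 75.0 and 22.9 TPM in the KO mice and at 197, 152 and 159 TPM in the HET mice, in the same order. Hypoxia gave the lower value in 5 of 6 mice, and KO-301 was the exception. The difference over 6 mice was -0.28 ± 0.12 (SE, limma, adjusted p = 0.224). Its 95% interval ran from -0.57 to 0.0027. Without KO-301 the difference was -0.41 ± 0.09 (SE, limma, adjusted p = 0.0758), which did not pass either.

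The change of Vegfa with hypoxia separated the genotypes by value, but the test of that difference did not pass over all genes. The log2 change with hypoxia was -0.16, -0.22 and 0.33 in KO-176, KO-281 and KO-301, and -0.48, -0.52 and -0.66 in HET-97, HET-102 and HET-129. All 3 HET mice thus had a larger drop than any KO mouse. The changes of the genotypes did not overlap for 1 of the 7 genes, against 10.2% of all genes. The difference of the changes, KO minus HET, was 0.54 ± 0.17 (SE, limma interaction term, unadjusted p = 0.0154, adjusted p = 0.965), and 0 genes of 12403 passed, with 4.63% at an unadjusted p under 0.05. Without KO-301 it was 0.36 ± 0.11. In TRAP RNA the same difference for Vegfa was 0.27 ± 0.33 (SE, limma, adjusted p = 0.999), with overlapping genotypes, where 3.70% of genes were under 0.05 before adjustment. That value ran from 0.03 without KO-301 to 0.58 without KO-176.

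The growth factor Pdgfa was lower in hypoxia in 5 of 6 mice in total RNA (-0.24 ± 0.11, SE, limma, adjusted p = 0.244) and in 5 of 6 in TRAP RNA (-0.31 ± 0.13, SE, limma, adjusted p = 0.321). HET-97 was the exception in total RNA and KO-176 in TRAP RNA. Pdgfb was split 3 against 3 in total RNA (0.13 ± 0.12, SE, limma, adjusted p = 0.54), and its difference was 0.034 without KO-301. In TRAP RNA Pdgfb was higher in 4 of 6 mice (0.29 ± 0.14, SE, limma, adjusted p = 0.39), and all 3 KO mice had a larger change than any HET mouse, a separation that 9.11% of genes showed. The inhibitor Thbs1 was lower in 4 of 6 mice in total RNA (-0.19 ± 0.14, SE, limma, adjusted p = 0.455), and higher in hypoxia in KO-301 and HET-129. In TRAP RNA the differences of Vegfa and Vegfb were -0.22 ± 0.16 (SE, limma, adjusted p = 0.56) and 0.06 ± 0.09 (SE, limma, adjusted p = 0.8). Without KO-301 they were -0.34 and 0.0066. Thbs1 in TRAP RNA differed by -0.14 ± 0.26 (SE, limma, adjusted p = 0.841), and its sign turned without KO-281, to 0.10.

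No member passed in TRAP RNA, where 0.0343% of 11676 genes (4 genes) did, with 14.7% at an unadjusted p under 0.05. Egln3 and Ankrd37 were among those 4.

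**Figure D2:**
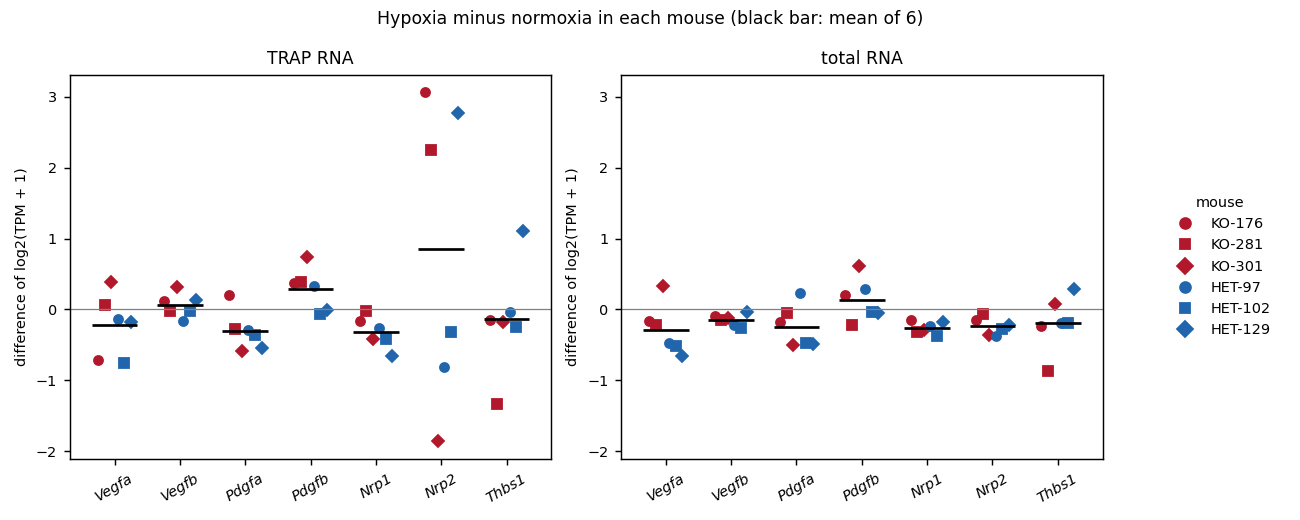
Hypoxia minus normoxia in each mouse on the log2(TPM + 1) scale, with TRAP RNA on the left and total RNA on the right (KO red, HET blue, black bars the mean of 6 mice). Nrp1 lies below 0 in all 6 mice in both panels, and Nrp2 in TRAP RNA spreads from -1.86 to 3.07.

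Of 46 further pathway genes in the tables, which were listed with earlier results known, 23 passed the filter in this comparison. In total RNA 1 of the 23 fell with hypoxia and none rose, while 9 were higher and 14 lower in value. The gene that fell was Jag1, a Notch ligand, by -0.77 ± 0.12 (SE, limma, adjusted p = 0.0246). Its call was kept without KO-281 and lost without any other single mouse, at an adjusted p of up to 0.0755. In TRAP RNA 0 of the 18 tested passed.

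Vegfa and Thbs1 had the largest genotype differences in total RNA, both lower in the mice labelled KO, but no gene of the whole table passed in any of the 4 genotype comparisons. Limma at an unadjusted p under 0.05 gave 3.16% of genes in hypoxic and 4.01% in normoxic total RNA, and 4.44% in hypoxic and 2.16% in normoxic TRAP RNA. The median of all genes was also below 0, at -0.11 in hypoxic and -0.14 in normoxic total RNA, and -0.10 in hypoxic and -0.08 in normoxic TRAP RNA.

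Vegfa averaged 60.1 ± 29.1 TPM in hypoxic KO and 116 ± 22.0 TPM in hypoxic HET macrophages (SD, n = 3 each). In normoxia it averaged 65.1 ± 38.1 TPM in KO and 169 ± 24.1 TPM in HET macrophages (SD, n = 3 each). The highest KO value was below the lowest HET value at both oxygen levels. Vegfa was the 1 gene of the 7 with that separation at both oxygen levels, against 1.80% of all genes. At a single oxygen level 6.38% of genes were lower in KO without overlap in hypoxia and 7.95% in normoxia. The log2 difference was -1.05 ± 0.40 in hypoxia (SE, limma, unadjusted p = 0.0354, adjusted p = 0.977) and -1.59 ± 0.51 in normoxia (SE, limma, unadjusted p = 0.0179, adjusted p = 0.856). Without KO-301 these were -0.61 ± 0.23 and -0.97 ± 0.21, and the direction was kept without each of the 6 mice. Lyz2 and Cd14 among the macrophage markers separated the genotypes in the same direction, the sum of the markers without Lyz2 did not, and their part in this difference was not tested. In a bulk sample fewer cells of a type and less RNA per cell cannot be told apart.

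In TRAP RNA, Vegfa had 25.7, 53.7 and 11.2 TPM in hypoxic KO-176, KO-281 and KO-301, and 66.3, 32.3 and 35.7 TPM in hypoxic HET-97, HET-102 and HET-129. In normoxia it had 42.8, 51.4 and 8.35 TPM in the KO mice and 72.9, 55.4 and 40.5 TPM in the HET mice, in the same order. The genotypes overlapped at both oxygen levels, with KO-281 inside the HET range at each and KO-176 inside it in normoxia. The log2 difference was -0.73 ± 0.55 in hypoxia (SE, limma, adjusted p = 0.977) and -1.003 ± 0.63 in normoxia (SE, limma, adjusted p = 1). Without KO-301 it was -0.19 in hypoxia and -0.22 in normoxia, and without KO-281 it was -1.27 and -1.46, the ends of the range over the mice left out. In TRAP RNA 0 of the 7 genes were lower in KO without overlap, against 7.40% of all genes in hypoxia and 4.14% in normoxia.

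Thbs1, the vessel growth inhibitor, had 87.7, 22.4 and 27.6 TPM in hypoxic KO-176, KO-281 and KO-301 total RNA, and 167, 88.5 and 74.8 TPM in hypoxic HET-97, HET-102 and HET-129. In normoxia it had 103, 41.6 and 26.1 TPM in the KO mice and 192, 101 and 60.9 TPM in the HET mice, in the same order. KO-176 overlapped the HET mice in both conditions. The log2 difference was -1.42 ± 0.55 in hypoxia (SE, limma, unadjusted p = 0.0389, adjusted p = 0.977) and -1.11 ± 0.59 in normoxia (SE, limma, adjusted p = 0.856). The normoxic value was -0.68 without KO-301. In TRAP RNA it was -1.44 ± 0.57 in hypoxia (SE, limma, unadjusted p = 0.0381, adjusted p = 0.977) and -0.61 ± 0.72 in normoxia (SE, limma, adjusted p = 1), the second of which was -0.11 without KO-301, -0.03 without HET-97 and -1.39 without HET-129.

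The other 5 genes overlapped between genotypes in every condition of total RNA. Vegfb averaged 59.9 ± 23 TPM in hypoxic KO and 67.8 ± 14.5 TPM in hypoxic HET macrophages, and Pdgfa 25.7 ± 12.0 TPM in KO and 23.1 ± 2.35 TPM in HET (SD, n = 3 each). In hypoxic KO-176, KO-281 and KO-301 Vegfb stood at 68.1, 77.6 and 34.0 TPM, so its lower KO mean rested on KO-301. Pdgfa stood at 38.5, 23.5 and 14.9 TPM in the same mice. Pdgfb spread over 4.13 (KO-301) to 31.9 TPM (KO-176) in hypoxic KO mice and 12.6 to 22.7 TPM in hypoxic HET mice. KO-301 had the lowest value of 6 mice for 5 of the 7 genes in total RNA at each oxygen level, for 7 of 7 in hypoxic TRAP RNA and for 6 of 7 in normoxic TRAP RNA. How often KO-301 was the lowest mouse over all genes was not counted, so these counts do not show a trait of the 7 genes. Of the pathway list, 0 of the 20 tested genes passed between genotypes in hypoxic and 0 of 21 in normoxic total RNA.

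TRAP RNA held less of most members than total RNA of the same lysate, and so it did of most genes. Limma called 6 of the 7 genes lower at each oxygen level, against 59.0% of all genes in hypoxia and 59.2% in normoxia (66.6% and 65.9% called in either direction). The median log2 difference of all genes was -0.55 in hypoxia and -0.60 in normoxia, and the 100 most abundant genes took 48.0 to 54.8% of TPM in TRAP libraries and 41.9 to 45.8% in total RNA libraries. Members are therefore also given relative to the median of all genes. Relative to it, Nrp2, Thbs1 and Vegfa were lower in TRAP RNA, Nrp1 slightly lower, and Pdgfb, Pdgfa and Vegfb at or above it.

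**Figure D3:**
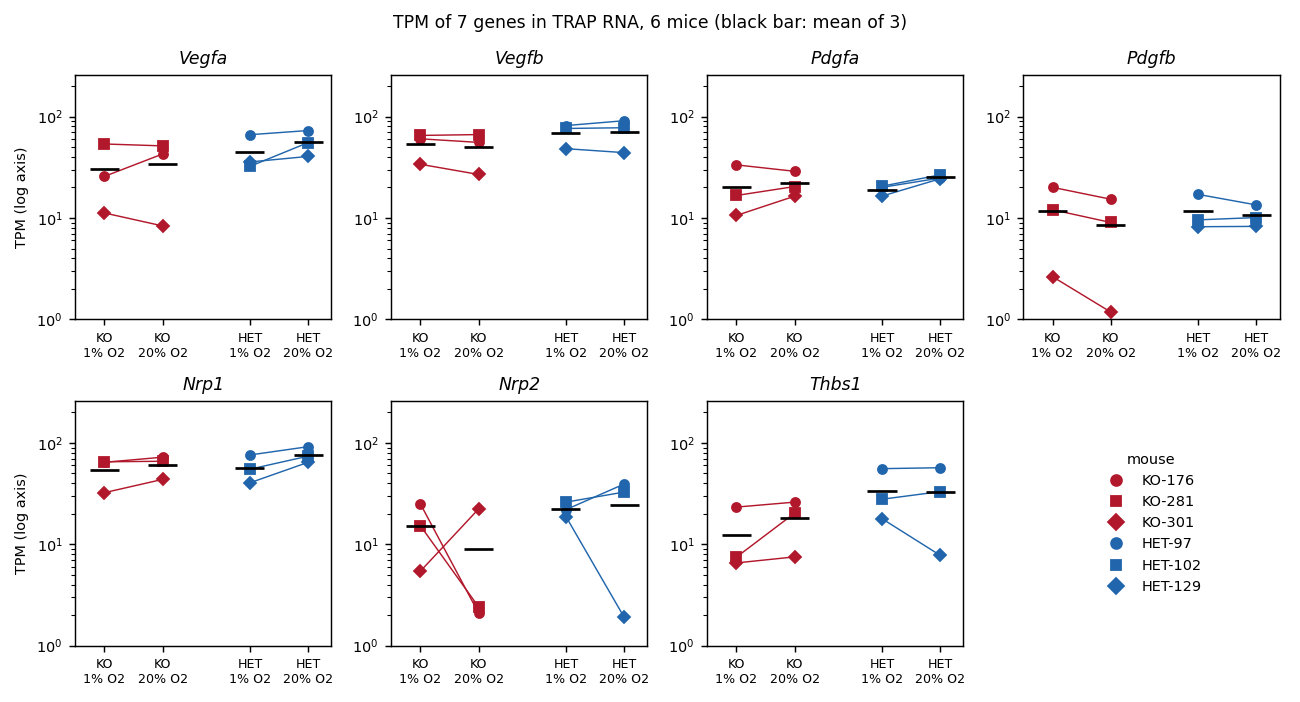
TPM on a log axis in TRAP RNA, drawn as for total RNA: hypoxia left of normoxia, KO (red) left of HET (blue), points are mice and black bars are means of 3. Nrp2 falls into high and low values in normoxia, with 3 mice between 1.91 and 2.41 TPM and 3 between 22.3 and 39.3 TPM.

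Vegfa differed by -1.25 ± 0.18 in hypoxia (SE, n = 6, limma, adjusted p = 0.000402) and -1.31 ± 0.16 in normoxia (SE, n = 6, limma, adjusted p = 0.000257), lower in TRAP RNA in 6 of 6 mice each time, as 51.2% of genes were in hypoxia and 51.8% in normoxia. That is -0.70 and -0.71 relative to the median of all genes. It stayed called after quantile normalization, at -0.86 in hypoxia and -0.92 in normoxia, and after median-ratio scaling, at -0.63 and -0.65. KO-281 had the smallest difference at both oxygen levels, -0.26 in hypoxia and -0.54 in normoxia.

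Thbs1 differed by -1.74 ± 0.10 in hypoxia (SE, n = 6, limma, adjusted p = 2.18e-05) and -1.79 ± 0.20 in normoxia (SE, n = 6, limma, adjusted p = 0.000179). Relative to the median of all genes it was -1.19 at both oxygen levels, below all but 3.12% of genes in hypoxia and 3.59% in normoxia. Its hypoxic per-mouse values ran from -2 to -1.47, the narrower spread of the 2 oxygen levels. Nrp1 differed by -0.90 ± 0.11 in hypoxia (SE, n = 6, limma, adjusted p = 0.000151) and -0.83 ± 0.12 in normoxia (SE, n = 6, limma, adjusted p = 0.000468), lower in 6 of 6 mice, and -0.35 and -0.23 relative to the median. After quantile normalization it stayed called, at -0.59 and -0.52. After median-ratio scaling it was -0.28 in hypoxia (limma, adjusted p = 0.0485) and -0.16 in normoxia (limma, adjusted p = 0.375), so the normoxic call was lost.

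Nrp2 had the largest difference of the 7 genes. In hypoxia its TRAP RNA stood at 25.02, 15.2 and 5.43 TPM in KO-176, KO-281 and KO-301 and at 22.0, 26.0 and 18.8 TPM in HET-97, HET-102 and HET-129, against 57.4 to 92.2 TPM in total RNA. In normoxia its TRAP RNA stood at 2.10, 2.41 and 22.3 TPM in the KO mice and at 39.3, 32.8 and 1.91 TPM in the HET mice, against 60.0 to 120 TPM in total RNA. The low normoxic values came from KO-176, KO-281 and HET-129, so mice of both genotypes had them. In total RNA of the same lysates Nrp2 stood at 97.9 TPM in KO-176, the highest KO mouse, at 60.0 TPM in KO-281, the lowest of the 6 mice, and at 82.2 TPM in HET-129, the lowest HET mouse. The difference was -2.04 ± 0.20 in hypoxia (SE, n = 6, limma, adjusted p = 6.48e-05) and -3.13 ± 0.54 in normoxia (SE, n = 6, limma, adjusted p = 0.00113). The widest step between neighbouring normoxic TRAP values was 2.77 on the log2(TPM + 1) scale, a step that 1.25% of 7179 genes with a mean of at least 10 TPM in total RNA equalled or passed. The change of Nrp2 with hypoxia in TRAP RNA was accordingly uneven, 0.85 ± 0.67 over 6 mice (SE, limma, adjusted p = 0.594), with 3 mice higher and 3 lower, and 1.39 without KO-301. What set the low values apart was not tested.

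The remaining ligands stayed close to or above the median of all genes. Vegfb differed by -0.07 ± 0.08 in hypoxia (SE, limma, adjusted p = 0.499) and -0.27 ± 0.11 in normoxia (SE, limma, adjusted p = 0.0495), or 0.49 and 0.33 relative to the median. Its normoxic call was lost without any 1 mouse other than HET-97, at an adjusted p of up to 0.12. Pdgfa differed by -0.32 ± 0.09 in hypoxia (SE, limma, adjusted p = 0.0122) and -0.26 ± 0.13 in normoxia (SE, limma, adjusted p = 0.109), which did not pass, although it did when HET-97 was left out. Pdgfb differed by -0.43 ± 0.14 in hypoxia (SE, limma, adjusted p = 0.0248) and -0.59 ± 0.12 in normoxia (SE, limma, adjusted p = 0.00288), and the hypoxic call held only without KO-281 among the single mice left out. Vegfb, Pdgfa and Pdgfb all turned to higher in TRAP RNA after quantile normalization and after median-ratio scaling, so their direction depends on the scaling. In hypoxia Vegfb was then called higher after both scalings (limma, lowest adjusted p = 0.00113).

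**Figure D4:**
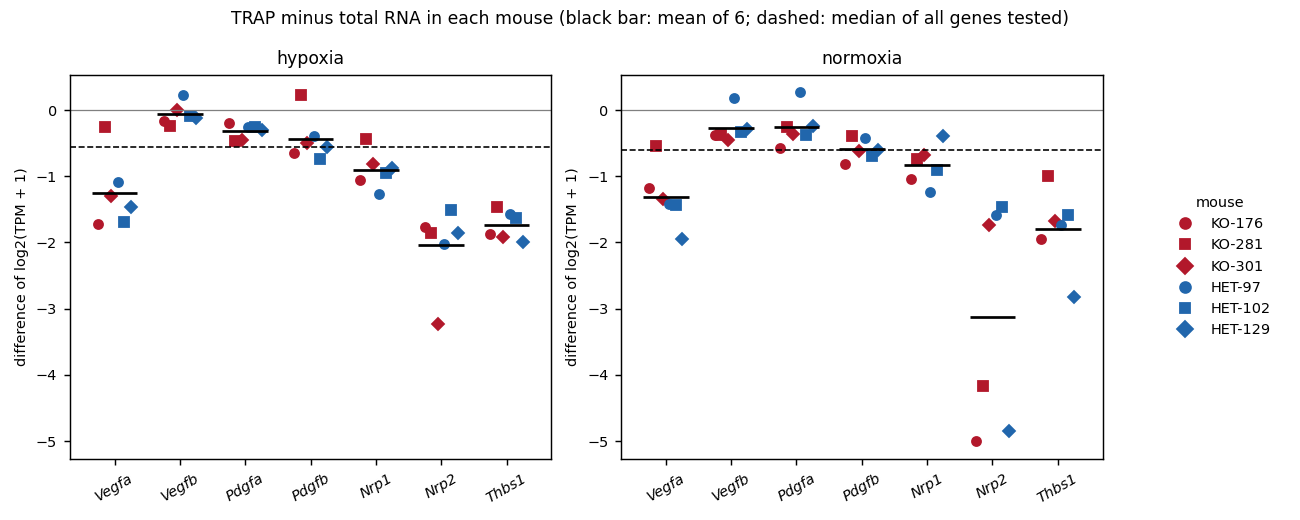
TRAP minus total RNA in each mouse on the log2(TPM + 1) scale, with hypoxia on the left and normoxia on the right (KO red, HET blue). Black bars are means of 6 mice and the dashed line is the median of all genes tested, -0.55 in hypoxia and -0.60 in normoxia, with Nrp2, Thbs1 and Vegfa below it and Vegfb and Pdgfa above it on average.

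Among the pathway list 18 of 22 tested genes were called lower in TRAP RNA at each oxygen level, against the 59.0% of all genes in hypoxia and 59.2% in normoxia. The median log2 difference of the 22 was -0.99 in hypoxia and -1.13 in normoxia, against -0.55 and -0.60 over all genes. Some of those called lower lay at or above the median of all genes, by 0.02 for Kdr and 0.11 for Plxna3 in hypoxia, and by 0.0030 for Hgf, 0.0077 for Hbegf, 0.047 for Plxna2 and 0.096 for Kdr in normoxia. Receptors for members were also among the genes called lower, and Calcrl and Cd36 lay below the median of all genes. Calcrl, which encodes a part of the adrenomedullin receptor, differed by -1.79 ± 0.19 in hypoxia and -1.89 ± 0.30 in normoxia (SE, limma, adjusted p = 9.75e-05 and 0.00079). Cd36, a thrombospondin receptor, differed by -1.15 ± 0.10 and -1.43 ± 0.28 (SE, limma, adjusted p = 3.98e-05 and 0.00229). Cd47, another thrombospondin receptor, was not called, at -0.40 ± 0.27 in hypoxia and -0.64 ± 0.28 in normoxia (SE, limma, adjusted p = 0.217 and 0.0716). Ramp1 was not called either, at 0.04 in hypoxia and 0.16 in normoxia. The others called lower at both oxygen levels were Serpinf1, Hgf, Col18a1, Plxnd1, Notch1, Pdgfc, Kdr, Spred1, Angptl2, Plxna1, Hbegf, Timp3, Ctgf, Jag1 and Cyr61. Plxna3 was called lower in hypoxia and did not pass the filter in normoxia, and Plxna2 was called lower in normoxia and did not pass the filter in hypoxia. Angptl6 was the 1 gene called higher, in normoxia: it differed by -0.20 ± 0.23 in hypoxia (SE, limma, adjusted p = 0.469) and by 0.47 ± 0.15 in normoxia (SE, limma, adjusted p = 0.0201). Between hypoxia and normoxia that TRAP minus total RNA difference of Angptl6 changed by -0.66 ± 0.27 (SE, limma, unadjusted p = 0.0395, adjusted p = 0.816), which did not pass.

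The hypoxia change did not differ past the threshold between TRAP and total RNA for any of 12918 genes, with 5.48% at an unadjusted p under 0.05. Among the members Nrp2 had the widest gap, 1.09 ± 0.66 (SE, 6 per-mouse values, limma, adjusted p = 0.833), with an interval from -0.44 to 2.62. Vegfa's gap was 0.06 ± 0.15 (SE, limma, adjusted p = 0.944), with an interval from -0.28 to 0.41. Vegfb was the 1 member of the 8 tested here with an unadjusted p under 0.05. Its gap was 0.21 ± 0.09 (SE, limma, unadjusted p = 0.0458, adjusted p = 0.816), with an interval from 0.0049 to 0.41, and did not pass.

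As a description over the 12 total RNA libraries, which come from 6 mice and share each mouse's profile, the genes most alike in pattern to Vegfa among 8966 were Svil (Pearson r = 0.96) and Ets2 (0.953). For Thbs1 they were Ppp6r3 (0.988) and Cerk (0.984), for Nrp1 Nin (0.966) and Tmem135 (0.964), and for Nrp2 Tns3 (0.983) and Hspa4 (0.97). For Vegfb they were Cmas (0.98) and Bex3 (0.973), for Pdgfb Tes (0.982) and Arl6ip5 (0.975), and for Pdgfa Sypl (0.889) and Pank2 (0.855). Between members the correlation was highest for Nrp2 with Thbs1 (0.858) and lowest for Vegfb with Nrp2 (0.329).

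On GRCm38 the genes lie, by the annotation, at chr17:46016993-46032369 for Vegfa, chr19:6982473-6987651 for Vegfb, chr5:138976014-138997370 for Pdgfa, chr15:79995874-80014977 for Pdgfb and chr7:110627661-110629820 for Adm. Flt1 lies at chr5:147561604-147726011, Nrp1 at chr8:128358604-128503363, Nrp2 at chr1:62703285-62818695 and Thbs1 at chr2:118111876-118127133. All 9 are annotated as protein-coding, and each TPM value is over the whole gene, so isoforms of Vegfa, Flt1 and the neuropilins were not told apart.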

How the data were processed

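The deposited values were TPM made by the authors, in 1 table of 12 total RNA libraries and 1 of 12 TRAP libraries. TPM is scaled to gene length and library total, so depth and counting error are unknown. The submitters' processing notes name the tools HISAT and DESeq2 and the build GRCm38. For their versions, their settings and the use of strand, nothing is stated in the labels or headers. The other 24 per-sample columns were not used. Libraries were grouped by their titles and genotype labels, and no 2 columns were identical.

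The 9 genes, the pathway list and the markers were chosen with earlier results of these data known. Genes named were the 9, Elavl1, 6 hypoxia-responsive genes, pathway genes past the threshold and the 2 genes most alike to each tested member. Cd47 and Ramp1 were named beside them as genes of the list that did not pass. Genes that reached 1 TPM in 3 or more of the fitted libraries were tested on the log2(TPM + 1) scale, and limma 3.58.1 (R 4.3.3, trended prior variance) was fitted to all genes. Adjusted p are two-sided Benjamini-Hochberg values over all genes tested, with a threshold of 0.05. Comparisons within a mouse had the mouse as a block, and genotype comparisons used the 6 libraries compared. The animal number marks the same mouse, and deviations from group means correlated between oxygen levels at 0.547 to 0.792 for total and 0.385 to 0.707 for TRAP libraries. Alternatives were a pseudocount of 0.1, no filter, quantile and median-ratio scaling, no block and mice left out. The fits were also run on simulated data with known changes, as a check of the code only. That outcome is not given here and lends the results no support. Summaries were made with Python 3.11.15 and pandas 2.3.3.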

Additional observations from a re-analysis of the deposited data

Results flagged for a closer look

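In 28 sets of 6 per-mouse differences of the 7 tested genes, 3 mice stood apart, by a gap over range above 0.625. Chance marks about 1 set in 20. Nrp2 in KO-301 had a TRAP minus total RNA difference of -3.23 in hypoxia, below the other 5 mice, which ran from -2.02 to -1.51. Pdgfb in KO-281 had a difference of 0.22 in hypoxia, the 1 mouse with more Pdgfb in TRAP RNA than in total RNA. Vegfb in HET-97 had a difference of 0.177 in normoxia, again the 1 mouse above 0. What set these values apart was not tested.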

How the results depend on the processing

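Of 540 alternative values for the 45 gene differences, 526 kept their direction. That count includes the fits with no filter and those with no block or all 4 groups. These leave the difference itself unchanged by design, so they could not turn it and say nothing on direction. In hypoxia the TRAP minus total RNA differences turned after quantile normalization and median-ratio scaling to 0.30 and 0.55 for Vegfb, 0.28 and 0.28 for Pdgfa and 0.26 and 0.14 for Pdgfb. In normoxia they turned to 0.14 and 0.40 for Vegfb, 0.36 and 0.40 for Pdgfa and 0.17 and 0.0086 for Pdgfb. The hypoxia change in TRAP RNA turned to 0.10 for Thbs1 without KO-281 (-0.39 to 0.10 over the mice left out) and to -0.024 for Vegfb without HET-129 and KO-301 together. Nrp1's drop in normoxic TRAP RNA missed the threshold after median-ratio scaling (-0.16, limma, adjusted p = 0.375).

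For hypoxia in total RNA 492 genes were called, against 201 with no filter on low values, 0 without the mouse block, 8 without HET-129 and KO-301 together and 48 to 224 without 1 mouse. The called members went with them, from 1 to 0 without the mouse block, without HET-129 and KO-301 together and without any 1 mouse. The calls split 194 higher and 298 lower, and 269 and 260 after quantile normalization. In TRAP RNA the 4 calls became 0 with a pseudocount of 0.1, with no filter, without the block and without HET-129 and KO-301 together, 7 after quantile normalization, 1 after median-ratio scaling and 0 to 3 without 1 mouse. The difference between genotypes in that change gave 0 genes, 2 with a pseudocount of 0.1 in total RNA, and 0 to 1 without 1 mouse in each fraction.

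Genotype comparisons gave 0 genes. Without HET-129 and KO-301 together they gave 1 in hypoxia and 2 in normoxia, in total and in TRAP RNA alike. Without 1 mouse they gave 0 to 2 in hypoxia and 0 to 1 in normoxia in either fraction. A fit of all 4 groups over 12 libraries gave 1 in hypoxic TRAP RNA. None of these was a member. TRAP against total RNA in hypoxia gave 8157 calls (928 higher, 7229 lower), against 5535 (2805 and 2730) after quantile normalization and 6180 (3017 and 3163) after median-ratio scaling. In normoxia 8004 calls (807 higher, 7197 lower) became 5171 (2680 and 2491) and 5737 (2826 and 2911). The causes were not tested. Without the replicate block Nrp1 in hypoxia kept its value of -0.26, and its adjusted p by limma was 1. Unknown depth limits all low values, Adm and Flt1 above all.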
